A study of Homo sapiens with 2 samples.

Results

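The FOXA genes and floor plate genes described here are 7 genes, FOXA1, FOXA2, SHH, CORIN, SPON1, NTN1 and LMX1A, chosen by name and found by symbol among the 61487 features that both libraries list. The question followed is which cells carried each gene, and together with what. The study turned human embryonic stem cells into serotonergic neurons with and without a knockout of FOXA2, and read RNA from single cells. Both groups came from WA09, an established human embryonic stem cell line also called H9, with EGFP knocked into TPH2, the gene of the enzyme that starts serotonin synthesis in neurons. The group labelled WT carried the reporter alone. The group labelled FKO carried the reporter and the FOXA2 knockout, and its line was built on an H9 line in which CRISPR/Cas9 cutting and end joining had placed a premature stop in FOXA2. Both groups had gone through serotonergic differentiation with purmorphamine (PUR), an agonist of hedgehog signaling, and cells with EGFP signal were sorted at day 42 and loaded for 10x Genomics 3' sequencing. The dose of PUR behind each library is not given in the sources used here.

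There was 1 library per group, so no test between groups was possible and cells were not treated as replicates. The WT-labelled library held 11052 barcodes with 123064653 unique molecular identifiers (UMIs, each tagging 1 captured RNA molecule). The FKO-labelled library had 8806 barcodes, which summed to 70588747 UMIs. After limits on depth, genes, mitochondrial UMIs and doublet score, 5749 cells with a median of 12460 UMIs remained in the WT-labelled library, and 6978 cells with a median of 6927 UMIs in the FKO-labelled library. The limit of 10% mitochondrial UMIs set aside 4225 barcodes (38.2%) in the WT-labelled library and 1015 (11.5%) in the FKO-labelled library. Since the kept cells differed in depth, each was also thinned at random to 2000 UMIs, and a share "at equal depth" refers to the 5706 and 6862 cells deep enough for that. A level in CPM is the number of a gene's UMIs per 1000000 UMIs of the same cells, counted before thinning. Ranges in brackets are exact 95% intervals, Clopper-Pearson for shares and Poisson for levels, and they cover counting error only.

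FOXA2 is the gene knocked out in the group labelled FKO. It had more UMIs and more carriers in that library than in the WT-labelled library. The libraries are therefore named by their labels only, and whether the labels were exchanged was not tested. A 3' UMI shows that a FOXA2 transcript was captured and not whether it held an insertion or deletion. These counts thus do not test the label of either library, and they do not give the amount of protein. The libraries had 21 barcode sequences in common, and each library was counted on its own.

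The floor plate is the strip of cells at the ventral midline of the neural tube. It secretes SHH, which patterns the ventral neural tube, and guidance molecules that steer growing axons, and progenitors that give rise to hindbrain serotonergic neurons lie next to it. FOXA2 is a transcription factor of the forkhead family that is turned on by SHH signaling in the floor plate and in turn activates SHH there.

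To see which cells carried the genes, the thinned cells were put in 5 classes in a fixed order. Cells with UMIs of at least 2 of 16 cycling genes came first, and 51 cells in the WT-labelled library and 84 in the FKO-labelled library were in that class. Cells with at least 3 UMIs of FEV, a transcription factor of postmitotic serotonergic neurons, formed the FEV-rich class, with 3272 and 2102 cells. Of the others, 18 and 88 cells held a UMI of SLC17A6, a vesicular glutamate transporter of glutamatergic neurons, 1807 and 3054 held 1 or 2 FEV UMIs (FEV-low), and 558 and 1534 held neither gene. These classes are ranges of a count and not cell types: 2016 and 2461 cells had 2 or 3 FEV UMIs and so lay at the border between FEV-low and FEV-rich. Cells of the class with neither gene still held 574.5 CPM of FEV in the WT-labelled library and 439.7 CPM in the FKO-labelled library before thinning, against 1949.4 and 1381.9 CPM in FEV-rich cells. FEV-rich cells stand below for the background from free RNA, with median depths of 12384.5 and 6682.5 UMIs, against 12997 and 7203.5 UMIs for cells with neither gene.

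In both libraries FOXA2, SHH, CORIN, SPON1 and NTN1 had their highest level in cycling cells or in cells with neither gene and a lower level in FEV-rich cells. FOXA1 was highest in cells with neither gene in the WT-labelled library and in the SLC17A6 class in the FKO-labelled library. The libraries differed in which of the genes was abundant. Among cells with neither gene, those labelled WT were richer in SHH, CORIN and SPON1, those labelled FKO were richer in FOXA2, and NTN1 and FOXA1 were close in both. This class made up 9.78% of thinned cells labelled WT and 22.4% labelled FKO and was not alike in other genes: GATA3 stood at 311.9 and 600.7 CPM and COL1A1 at 17.8 and 233.6 CPM. What part this has in the comparisons within the class was not tested.

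**Figure D1:**
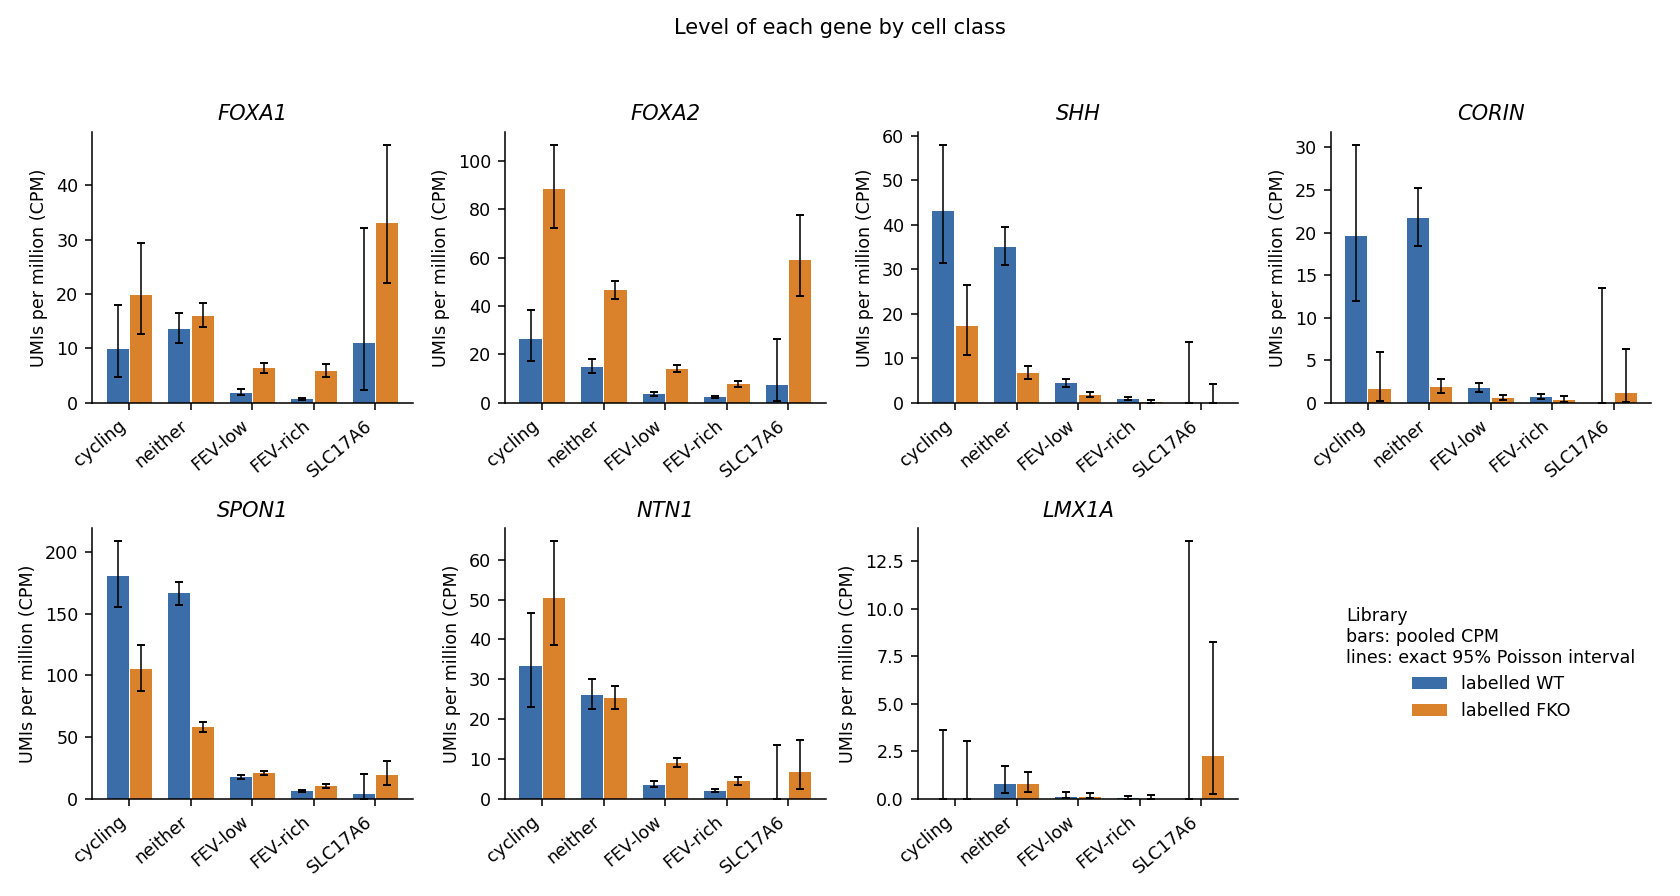
Each panel shows 1 gene, with the 5 cell classes on the x axis and the pooled level in CPM on the y axis; bars are the libraries labelled WT (blue) and FKO (orange), and lines are exact 95% Poisson intervals. SHH, CORIN and SPON1 are high in cycling cells and cells with neither FEV nor SLC17A6, above all in the WT-labelled library, while FOXA2 is higher in the FKO-labelled library in every class.

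FOXA2 (ENSG00000125798) lies on chromosome 20 from 22581005 to 22585455 on the minus strand in GENCODE release 29 on GRCh38, where AL121722.1, which the libraries do not list, overlaps it on the same strand. Its UMIs were in 215 of 5749 cells of the WT-labelled library (3.74%, 3.26 to 4.26%) and in 479 of 6978 cells of the FKO-labelled library (6.86%, 6.28 to 7.48%). At equal depth the shares were 0.736% (0.531 to 0.994%) and 2.81% (2.43 to 3.23%). FOXA2 was thus carried by few cells of either library, and by more of the FKO-labelled library. With a mitochondrial limit of 5%, which left 320 thinned cells labelled WT, these shares came to 1.88% (0.691 to 4.04%) and 2.17% (1.67 to 2.77%), and their intervals overlapped.

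The class of the cell mattered for FOXA2 in both libraries. At equal depth 0.397% (0.212 to 0.678%) of FEV-rich cells labelled WT had a FOXA2 UMI, against 2.33% (1.25 to 3.95%) of cells with neither gene. In the FKO-labelled library the same shares were 1.33% (0.887 to 1.92%) and 6.32% (5.16 to 7.66%). The excess over FEV-rich cells is beyond counting error, so in cells with neither gene the FOXA2 signal lay above the background. In FEV-rich cells it cannot be told apart from free RNA by this share alone. FOXA2 stood at 2.37 CPM (1.94 to 2.87) in FEV-rich cells labelled WT and at 14.9 CPM (12.3 to 17.9) in cells with neither gene. In the FKO-labelled library it stood at 7.62 CPM (6.35 to 9.07) and 46.6 CPM (42.9 to 50.4), and it was highest in cycling cells, at 88.3 CPM (72.3 to 107.0). The level was higher in the FKO-labelled library by 3.21 times (2.46 to 4.21) in FEV-rich cells and by 3.12 times (2.55 to 3.86) in cells with neither gene, so the libraries differed by a like factor in both classes.

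The share of the FOXA2 UMIs held by a class differed between the libraries, and so did its share of cells. FEV-rich cells held 31.1% of all FOXA2 UMIs in the WT-labelled library and 10.0% in the FKO-labelled library, while they made up 57.3% and 30.6% of cells. Cells with neither gene held 33.5% and 48.2%, while they made up 9.78% and 22.4% of cells. The SLC17A6 class held 52 FOXA2 UMIs in 88 cells labelled FKO (59.3 CPM, 44.3 to 77.7) and 2 UMIs in 18 cells labelled WT (7.34 CPM, 0.889 to 26.5). At equal depth 8 of those 88 cells (9.09%, 4.01 to 17.1%) had a FOXA2 UMI, so FOXA2 transcripts of the FKO-labelled library were also found in cells with SLC17A6.

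FOXA2 carriers differed in how much they held. In the WT-labelled library 152 of the 215 carriers (70.7%) had 1 UMI and 3 had over 5, with a highest count of 11. In the FKO-labelled library 273 of the 479 carriers (57.0%) had 1 UMI, 66 had over 5, and the highest count was 27. These 66 cells held 45.1% of all FOXA2 UMIs of their library, whereas the 3 cells labelled WT held 7.49%. A FOXA2-rich set of cells was therefore present in the FKO-labelled library and hardly in the WT-labelled library, although the cells labelled WT were deeper.

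**Figure D2:**
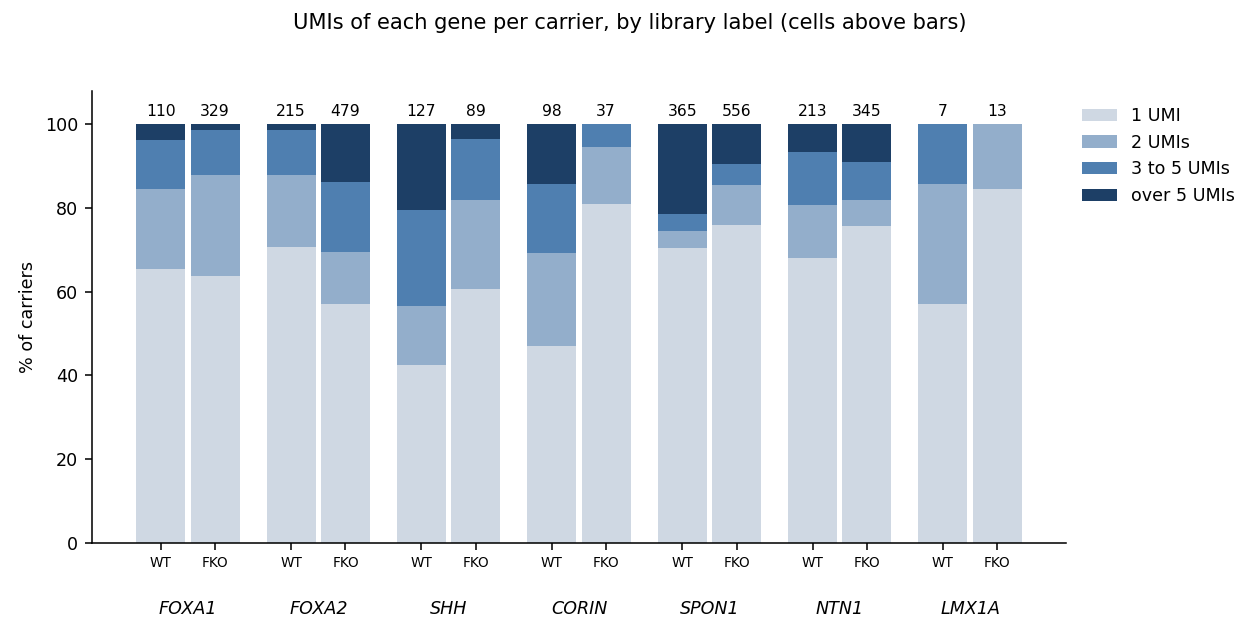
Stacked bars give, for each gene and library label on the x axis, the percent of its carriers (y axis) with 1, 2, 3 to 5 or over 5 UMIs of the gene at full depth; numbers above the bars are carriers. Carriers of FOXA2 with over 5 UMIs are 66 in the FKO-labelled library and 3 in the WT-labelled library, while for SHH and CORIN such carriers are more numerous in the WT-labelled library (26 against 3, and 14 against 0).

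Cells with 1 FOXA2 UMI and cells with over 5 were unlike each other. FKO-labelled cells with 1 UMI, with a median depth of 7754 UMIs, held 863.5 CPM of FEV (829.1 to 899.0), and 3.66% of them (1.77 to 6.63%) had a SHH UMI. The 66 cells with over 5 UMIs, with a median depth of 12680.5 UMIs, held 377.7 CPM of FEV, and 39.4% of them (27.6 to 52.2%) had a SHH UMI. FOXA1 was in 60.6% of the 66 cells, NTN1 in 63.6%, SPON1 in 57.6%, CORIN in 16.7%, SLC17A6 in 13.6%, and at least 2 cycling genes in 21.2%. FOXA2-rich cells thus often carried FOXA1, NTN1 and SPON1, and CORIN less often. They had SHH more often than cells with 1 FOXA2 UMI, and FEV at a lower level. In the WT-labelled library the 152 cells with 1 FOXA2 UMI held 1347.8 CPM of FEV (1299.2 to 1397.8), against 1608.9 CPM in cells with none and 545.0 CPM (487.7 to 607.1) in the 37 cells with 2, so by FEV they were closer to cells without FOXA2.

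FOXA1 (ENSG00000129514), the related forkhead factor, lies on chromosome 14 from 37589984 to 37596059 on the minus strand, opposite to TTC6, which had 32 UMIs among kept WT-labelled cells and 167 among FKO-labelled ones. Whether reads were assigned by strand is not stated in the sources used here. FOXA1 UMIs were in 110 cells of the WT-labelled library (1.91%, 1.58 to 2.30%) and in 329 cells of the FKO-labelled library (4.71%, 4.23 to 5.24%). At equal depth the shares were 0.456% (0.298 to 0.667%) and 1.47% (1.2 to 1.79%), the same order as for FOXA2, but with the mitochondrial limit of 5% the order turned, to 1.56% (0.509 to 3.61%) in 320 cells labelled WT and 1.23% in the FKO-labelled library.

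FOXA1 differed from FOXA2 in where the libraries parted. In cells with neither gene FOXA1 stood at 13.6 CPM (11.1 to 16.5) in the WT-labelled library and at 16.0 CPM (13.9 to 18.3) in the FKO-labelled library, a ratio of 1.18 (0.926 to 1.51) that counting error covers. In FEV-rich cells it stood at 0.639 CPM (0.424 to 0.923) and 5.87 CPM (4.76 to 7.16), higher by 9.19 times (5.98 to 14.5) in the FKO-labelled library. In FEV-low cells it was higher by 3.40 times (2.43 to 4.84). The excess of FOXA1 in the FKO-labelled library was thus seen in FEV-low and FEV-rich cells and not, beyond counting error, in cells with neither gene. FEV-rich cells were taken as the background, so their FOXA1 cannot be told apart from free RNA here, and its source was not tested. By number of FEV UMIs in the thinned cell, FOXA1 labelled FKO stood at 6.09 CPM (4.80 to 7.63) at 2. It stood at 5.29 CPM (4.11 to 6.69) at 3 to 4 and at 7.23 CPM (4.63 to 10.8) at 5 to 7. In the SLC17A6 class it stood at 33.0 CPM (22.1 to 47.5) in the FKO-labelled library and, from 3 UMIs, at 11 CPM (2.27 to 32.2) in the WT-labelled library.

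The forkhead genes were often found in the same cells. Of the 110 FOXA1 carriers labelled WT, 44 (40.0%, 30.8 to 49.8%) also had a FOXA2 UMI, against 3.03% of the other cells. Of the 329 FOXA1 carriers labelled FKO, 152 (46.2%, 40.7 to 51.8%) also had a FOXA2 UMI, against 4.92% of the other cells. At equal depth 23 of 101 FOXA1 carriers labelled FKO had a FOXA2 UMI (22.8%, 15.0 to 32.2%, against 2.51%), and 2 of 26 did in the WT-labelled library (7.69%, 0.946 to 25.1%, against 0.704%). The pairing held beyond counting error in the FKO-labelled library at equal depth, and was too thinly counted to tell in the WT-labelled library.

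SHH (ENSG00000164690), the secreted ligand of the pathway, lies on chromosome 7 from 155799986 to 155812273 on the minus strand. CORIN (ENSG00000145244), a membrane serine protease used as a surface marker to sort floor plate cells, lies on chromosome 4 from 47593998 to 47838106 on the minus strand. The sequences before the starts of SHH and CORIN are shown because both genes were lower in the FKO-labelled library among cells with neither FEV nor SLC17A6. The set of promoter windows used here, from RefSeq on GRCh38.p14, covered 4 of the 7 genes and did not include FOXA2, SPON1 and NTN1. The SHH window is chr7:155812464-155812713 (250 bases) and the CORIN window is chr4:47838107-47838317 (211 bases), both on the minus strand, written 5′ to 3′ and cut so that they lie outside the gene as annotated. Capitals in the CORIN window mark TGGGTGG, letters known from GLI binding, the factors at the end of the hedgehog pathway.
SHH: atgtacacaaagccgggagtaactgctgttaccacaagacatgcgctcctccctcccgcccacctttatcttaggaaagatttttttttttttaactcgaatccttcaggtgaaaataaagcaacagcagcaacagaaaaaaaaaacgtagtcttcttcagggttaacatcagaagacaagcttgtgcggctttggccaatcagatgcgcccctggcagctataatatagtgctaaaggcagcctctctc
CORIN: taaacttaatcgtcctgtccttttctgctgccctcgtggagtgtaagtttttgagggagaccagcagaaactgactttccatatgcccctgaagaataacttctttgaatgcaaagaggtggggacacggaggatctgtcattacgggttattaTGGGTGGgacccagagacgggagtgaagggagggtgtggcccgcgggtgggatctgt
The search covered both strands of the 5 windows of 300 bases that belong to the 4 genes, for TGGGTGG and for the forkhead letters TGTTTAC and TATTTAC, which do not overlap one another. Only the CORIN window held TGGGTGG, beginning 96 bases before the RefSeq start, and none of the 5 held TGTTTAC or TATTTAC. Of all 35116 RefSeq windows of that length, 9.19% held TGGGTGG, 3.42% TGTTTAC and 2.67% TATTTAC. A match is a description of letters and not of binding.

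SHH was carried by 127 cells of the WT-labelled library (2.21%, 1.84 to 2.62%) and 89 cells of the FKO-labelled library (1.28%, 1.03 to 1.57%). At equal depth the shares were 0.683% (0.486 to 0.933%) and 0.466% (0.319 to 0.658%), and these intervals overlapped. They stood apart at a mitochondrial limit of 20% (0.724%, 0.551 to 0.933%, and 0.283%, 0.175 to 0.432%) and with doublets removed at 2 times the rate (0.837%, 0.604 to 1.13%, and 0.335%, 0.207 to 0.511%). With the mitochondrial limit of 5% the shares came to 1.56% and 0.525%, with overlapping intervals. The class separated the libraries more clearly. In cells with neither gene SHH stood at 35.0 CPM (30.9 to 39.5) in the WT-labelled library and at 6.77 CPM (5.43 to 8.34) in the FKO-labelled library, 5.17 times (4.04 to 6.65) higher in the former. In cycling cells it stood at 43.2 CPM (31.4 to 57.9) and 17.3 CPM (10.7 to 26.5). In FEV-rich cells it fell to 0.912 CPM (0.652 to 1.24) and 0.181 CPM (0.0374 to 0.530), so SHH was largely kept to cells with little FEV in both libraries. No SHH UMI was found in the 18 and 88 cells of the SLC17A6 class, with intervals of 0 to 13.5 CPM and 0 to 4.20 CPM.

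CORIN was the gene with the largest gap of this direction. It was carried by 98 cells of the WT-labelled library (1.70%, 1.39 to 2.07%) and 37 cells of the FKO-labelled library (0.530%, 0.374 to 0.730%), and at equal depth by 0.543% (0.369 to 0.770%) and 0.102% (0.0410 to 0.210%). In cells with neither gene it stood at 21.7 CPM (18.5 to 25.3) and 1.85 CPM (1.18 to 2.75), higher in the WT-labelled library by 11.7 times (7.62 to 18.9). In FEV-rich cells the levels were 0.684 CPM (0.462 to 0.977) and 0.363 CPM (0.133 to 0.790), where the libraries could not be told apart. No carrier labelled FKO held over 5 CORIN UMIs, against 14 labelled WT, and for SHH such cells were 3 and 26. On the opposite strand of CORIN, which had 258 UMIs labelled WT and 46 labelled FKO, lie the pseudogene AC092597.1 with 19 and 9 UMIs and the antisense gene AC107068.2 with 5 and 26.

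SHH carriers held CORIN more often than other cells did. Of 127 SHH carriers labelled WT, 63 (49.6%, 40.6 to 58.6%) had a CORIN UMI, against 0.623% of other cells. Among 89 SHH carriers labelled FKO 12 (13.5%, 7.17 to 22.4%) had one, against 0.363%. At equal depth these were 8 of 39 (20.5%, 9.30 to 36.5%) and 0 of 32 (0 to 10.9%). The libraries thus differed at full depth, where they are unequally deep, and the intervals overlapped at equal depth. With FOXA2 the order was the other way: 62 of the 89 SHH carriers labelled FKO (69.7%, 59.0 to 79.0%) had a FOXA2 UMI, against 50 of the 127 labelled WT (39.4%, 30.8 to 48.4%). At equal depth 14 of 32 (43.8%, 26.4 to 62.3%) and 4 of 39 (10.3%, 2.87 to 24.2%) did, with intervals that stood apart. Cells without SHH also had FOXA2 more often in the FKO-labelled library. Their shares were 6.05% labelled FKO and 2.93% labelled WT at full depth, and 2.62% and 0.671% at equal depth.

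Seen from FOXA2, the difference between the libraries depended on the setting. Of the 215 FOXA2 carriers labelled WT, 52 (24.2%, 18.6 to 30.5%) had a SHH or CORIN UMI, whereas 1.99% (1.64 to 2.39%) of cells without FOXA2 did. Of the 479 labelled FKO, 68 (14.2%, 11.2 to 17.6%) had one, against 0.708% (0.519 to 0.943%). At equal depth the shares were 6 of 42 (14.3%, 5.43 to 28.5%) and 16 of 193 (8.29%, 4.81 to 13.1%), with intervals that overlapped, while cells without FOXA2 had 0.989% and 0.345%. The order of the libraries turned with the mitochondrial limit of 5%, to 0 of 6 and 4 of 62, and with thinning to 1000 UMIs, to 1 of 25 and 7 of 104. The intervals stood apart, with the WT-labelled library higher, at a mitochondrial limit of 20% (22.2%, 12.7 to 34.5%, and 6.93%, 3.84 to 11.4%) and with no filter on barcodes (13 of 65, 11.1 to 31.8%, and 13 of 225, 3.11 to 9.68%), and another random draw gave 25.5% and 9.20%. Most FOXA2 carriers in both libraries therefore held no UMI of SHH or CORIN. Put per FOXA2 UMI, cells with neither gene had 2.35 SHH UMIs (1.88 to 2.96) in the WT-labelled library and 0.145 (0.115 to 0.182) in the FKO-labelled library. FEV-rich cells had 0.385 (0.260 to 0.559) and 0.0238 (0.00485 to 0.0712), so the ratio differed between these classes in each library.

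SPON1 (ENSG00000262655) encodes F-spondin, a secreted adhesion and guidance protein of the floor plate, and lies on chromosome 11 from 13962689 to 14267884 on the plus strand, with few counts from SPON1-AS1 opposite to it (1 UMI labelled WT and 3 labelled FKO). Its UMIs were in 365 cells labelled WT (6.35%, 5.73 to 7.01%) and 556 cells labelled FKO (7.97%, 7.34 to 8.63%). At equal depth the shares were 2.02% (1.67 to 2.41%) and 2.78% (2.41 to 3.20%), and the order turned, to 5.31% and 2.63%, with the mitochondrial limit of 5%. In cells with neither gene SPON1 stood at 166.3 CPM (157.2 to 175.7) in the WT-labelled library and 57.9 CPM (53.9 to 62.2) in the FKO-labelled library. In FEV-rich cells the order was the other way, with 6.23 CPM (5.51 to 7.01) and 10.2 CPM (8.68 to 11.8). Equal totals in the libraries, 27.8 CPM each, thus stood over unlike distributions.

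Most SPON1 carriers had 1 UMI (70.4% labelled WT and 75.9% labelled FKO), yet 78 cells labelled WT and 52 labelled FKO had over 5, up to 74 and 71. These few cells held 83.8% and 61.0% of the SPON1 UMIs. Between these and the single UMIs lay 15 and 54 cells with 2 UMIs and 15 and 28 with 3 to 5. Rich cells thus stood more apart from single UMIs in the WT-labelled library than in the FKO-labelled library. These counts are at full depth, where the libraries were unequally deep.

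NTN1 (ENSG00000065320), the secreted axon guidance molecule netrin, lies on chromosome 17 from 9021542 to 9244000 on the plus strand. It was carried by 213 cells labelled WT (3.70%, 3.23 to 4.23%) and 345 labelled FKO (4.94%, 4.45 to 5.48%), and at equal depth by 0.771% (0.561 to 1.03%) and 1.56% (1.28 to 1.88%). With the mitochondrial limit of 5% this order turned as well, to 2.19% and 1.19%. In cells with neither gene its level was near equal, 26.1 CPM (22.5 to 30.0) and 25.3 CPM (22.7 to 28.2), a ratio of 0.971 (0.811 to 1.16). In FEV-low cells it stood at 3.61 CPM (2.89 to 4.46) and 9.04 CPM (7.92 to 10.3), so the larger number of NTN1 carriers labelled FKO lay among cells with some FEV and in the larger size of the class with neither gene.

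LMX1A (ENSG00000162761), a LIM homeodomain factor of the midbrain floor plate and of the roof plate, lies on chromosome 1 from 165201867 to 165356715 on the minus strand. It was close to the limit of detection. It had 11 UMIs in 7 cells labelled WT and 15 UMIs in 13 cells labelled FKO. Of these UMIs 6 and 10 lay in cells with neither FEV nor SLC17A6. At equal depth 5 and 2 cells had a UMI, and the order of the libraries turned with another random draw, with no thinning, with thinning to 4000 UMIs and with doublets kept. None of the 7 carriers labelled WT had a UMI of SHH, CORIN, SPON1 or NTN1, while 4 had FOXA2 and 2 had SLC17A6. Of the 13 labelled FKO, 7 had FOXA2, 7 had FOXA1, 6 had SPON1 (46.2%, 19.2 to 74.9%, against 7.90% of other cells), 5 had SLC17A6 (38.5%, 13.9 to 68.4%, against 2.79%), 4 had NTN1 (30.8%, 9.09 to 61.4%, against 4.90%), 2 had SHH and none had CORIN.

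**Figure D3:**
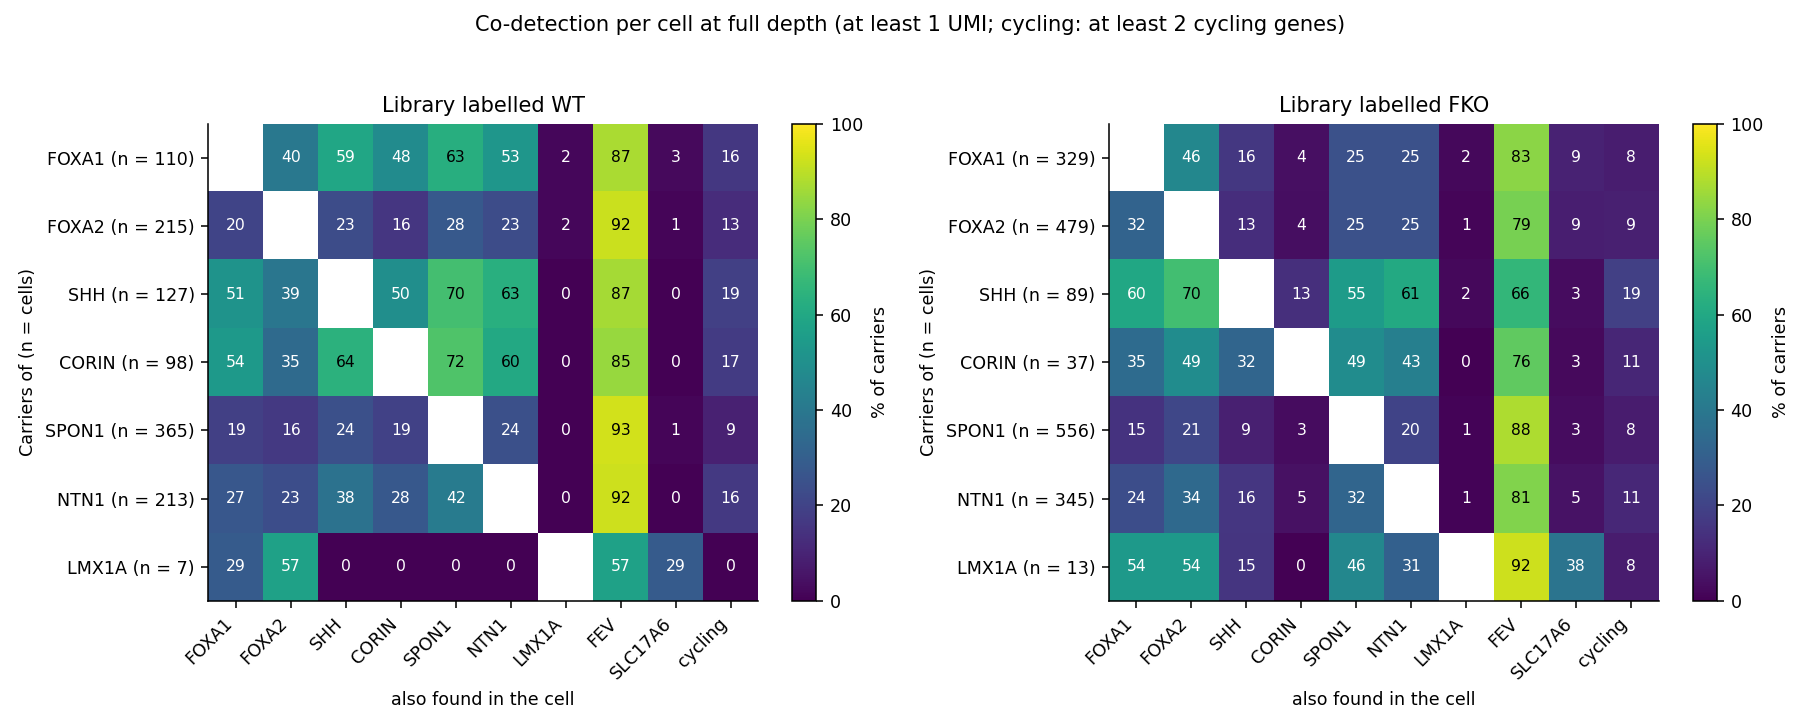
For each library, rows are carriers of 1 gene (number of cells in brackets), columns are the gene or cycling class also found in the cell, and color and numbers give the percent of carriers at full depth. SHH carriers hold CORIN in 49.6% of cells labelled WT and in 13.5% labelled FKO, hold FOXA2 in 39.4% and 69.7%, and share no cell with SLC17A6 in the WT-labelled library.

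Counted per cell at full depth, most carriers had 1 of the 7 genes, 596 cells labelled WT and 992 labelled FKO. In the WT-labelled library 39 cells had 2 of the genes, 15 had 3, 21 had 4, 40 had 5 and 22 had 6. The numbers for FKO fell at each step, 164, 61, 39, 27 and 9 cells. No cell had all 7. The cells labelled WT thus formed a separate set with 5 or 6 of the genes, which the numbers from the FKO-labelled library did not show at its lower depth. At equal depth 9 cells were found with 4 or more genes in each library (8 and 1 with 4 and 5 genes), so the separation was not detectable there.

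The number of FEV UMIs gave a finer view than the classes. As FEV rose from 0 to 8 or more UMIs in a thinned cell of the WT-labelled library, SHH fell from 35.5 CPM (31.6 to 39.8) to 0.577 CPM (0.0699 to 2.09). FOXA2 fell from 15.2 CPM (12.7 to 18.1) to 1.44 CPM (0.469 to 3.37) over the same steps. In the FKO-labelled library FOXA2 fell from 49.3 CPM (45.8 to 53.1) at 0 FEV UMIs to 8.14 CPM (5.36 to 11.8) at 5 to 7, and the last step held only 33 cells. Between 2 and 5 to 7 FEV UMIs FOXA2 changed within its intervals in the WT-labelled library, from 3.24 CPM (2.35 to 4.35) to 2.04 CPM (1.39 to 2.90), but in the FKO-labelled library it fell from 13.8 CPM (11.8 to 16.0) at 2 to 8.28 CPM (6.79 to 9.99) at 3 to 4. The fall in CPM was largest from 0 to 1 FEV UMIs in both.

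**Figure D4:**
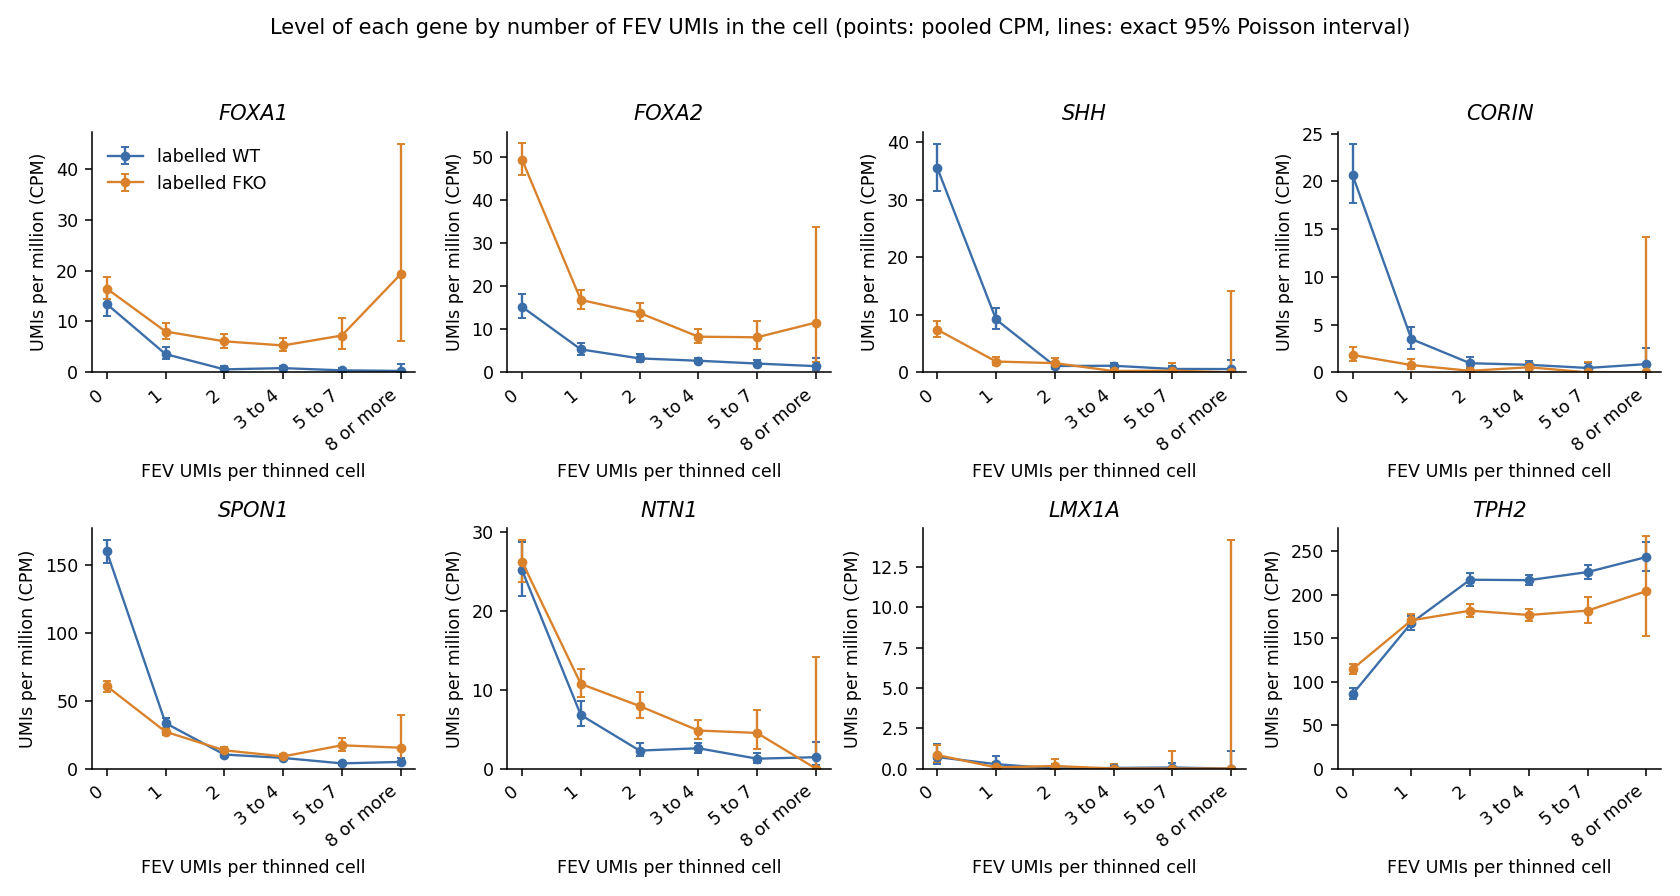
Panels show the 7 genes and TPH2, with the number of FEV UMIs per thinned cell on the x axis and the pooled level in CPM on the y axis; points are the libraries labelled WT (blue) and FKO (orange), with exact 95% Poisson intervals. All 7 genes drop from 0 to 1 FEV UMIs and TPH2 rises; the last step of the FKO-labelled library holds 33 cells.

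Co-detection with the partners put numbers on this. At equal depth 27 of 42 FOXA2 carriers labelled WT (64.3%, 48.0 to 78.4%) had a FEV UMI, against 89.5% of other cells. Among the 193 labelled FKO 84 (43.5%, 36.4 to 50.8%) had one, against 76.8%. Carriers of FOXA2 were therefore short of FEV in both libraries but by no means without it. A SLC17A6 UMI was in 8 of the 193 carriers labelled FKO (4.15%, 1.81 to 8.0%, against 1.23% of other cells) and in 0 of 42 labelled WT (0 to 8.41%). UMIs of at least 2 cycling genes were in 4 of the 42 (9.52%, 2.66 to 22.6%, against 0.830%) and in 8 of the 193 (4.15%, 1.81 to 8.0%, against 1.14%). Cycling cells were thus over-represented among carriers of both libraries and made up a small part of them. Among genes with over 20 carriers at equal depth SHH carriers held FEV least often, 14 of 39 (35.9%, 21.2 to 52.8%) labelled WT and 7 of 32 (21.9%, 9.28 to 40.0%) labelled FKO.

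The link of FOXA2 to the secreted and surface molecules was also read by how many of SHH, CORIN, SPON1 and NTN1 a thinned cell held. With none of them FOXA2 stood at 3.04 CPM (2.66 to 3.47) in the WT-labelled library and 14.3 CPM (13.3 to 15.4) in the FKO-labelled library. With 1 it stood at 26.6 CPM (19.2 to 36) and 108.5 CPM (95.7 to 122.4), and with 2 or more, in 52 and 42 cells, at 75.0 CPM (58.0 to 95.4) and 445.1 CPM (386.7 to 509.9). FOXA2 rose with each step in both libraries, and its level labelled FKO was above that labelled WT at each. Cells with none of the 4 genes held 226 of 334 FOXA2 UMIs labelled WT and were 5547 of 5706 thinned cells. Labelled FKO they held 786 of 1256 and were 6574 of 6862 thinned cells. Their share of the FOXA2 UMIs was thus below their share of cells. These UMIs were counted before thinning, and some of these cells may have held the 4 genes at full depth.

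The clearest set of cells came from SPON1, the gene with the most UMIs per rich cell. The 78 cells labelled WT and 52 labelled FKO with over 5 SPON1 UMIs had median depths of 16283 and 13399.5 UMIs. SHH was in 92.3% of them (84.0 to 97.1%) in the WT-labelled library and in 59.6% (45.1 to 73.0%) in the FKO-labelled library, at 263.9 CPM (237.6 to 292.4) and 78.9 CPM (60.4 to 101.4). CORIN was in 78.2% and 23.1%, at 151.4 CPM (131.6 to 173.3) and 22.0 CPM (12.8 to 35.2). FOXA2 went the other way, in 55.1% and 88.5% of these cells, at 66.3 CPM (53.5 to 81.4) and 405.0 CPM (361.4 to 452.4). SPON1-rich cells of the libraries thus held the same genes in unlike amounts, with SHH and CORIN higher in the WT-labelled library and FOXA2 higher in the FKO-labelled library.

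The other members completed the picture of these cells. FOXA1 was alike, 93.7 CPM (78.3 to 111.3) labelled WT and 89.3 CPM (69.5 to 113.0) labelled FKO. NTN1 was in 89.7% and 88.5% of them, at 176.7 CPM (155.2 to 200.2) and 394.6 CPM (351.6 to 441.5), higher in the FKO-labelled library. LMX1A was in none of them. FEV stood at 234.3 CPM (209.6 to 261.3) and 327.4 CPM (288.3 to 370.3), against 1617.4 and 923.9 CPM in cells without SPON1, and STMN2, a neuronal marker, at 495.4 and 1867.1 CPM, against 4483.7 and 5747.6 CPM. SOX2, a neural progenitor factor, stood at 213.4 CPM (189.8 to 239.2) and 307.9 CPM (270.1 to 349.7), against 104.2 and 80.4 CPM in cells without SPON1, and at least 2 cycling genes were in 21.8% and 30.8% of the SPON1-rich cells. These cells were thus lower in FEV and STMN2 and higher in SOX2 than cells without SPON1. The cells with over 5 SPON1 UMIs were singled out after the values were seen, and the levels are a description.

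The order of the libraries for FOXA2, SHH, CORIN and NTN1 in SPON1-rich cells was the same with the limit at over 3 or over 10 SPON1 UMIs and under every other limit on barcodes tried. FOXA2 then lay between 60.9 and 98.9 CPM in the WT-labelled library and between 224.0 and 460.5 CPM in the FKO-labelled library. SHH lay between 238.1 and 329.6 CPM and between 64.7 and 98.7 CPM. With the mitochondrial limit of 5% only 12 and 16 such cells remained, and that setting gave the lowest FOXA2 level labelled FKO. FOXA1 lay between 87.2 and 104.3 CPM and between 77.5 and 100.6 CPM, with intervals that overlapped in each setting.

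**Figure D5:**
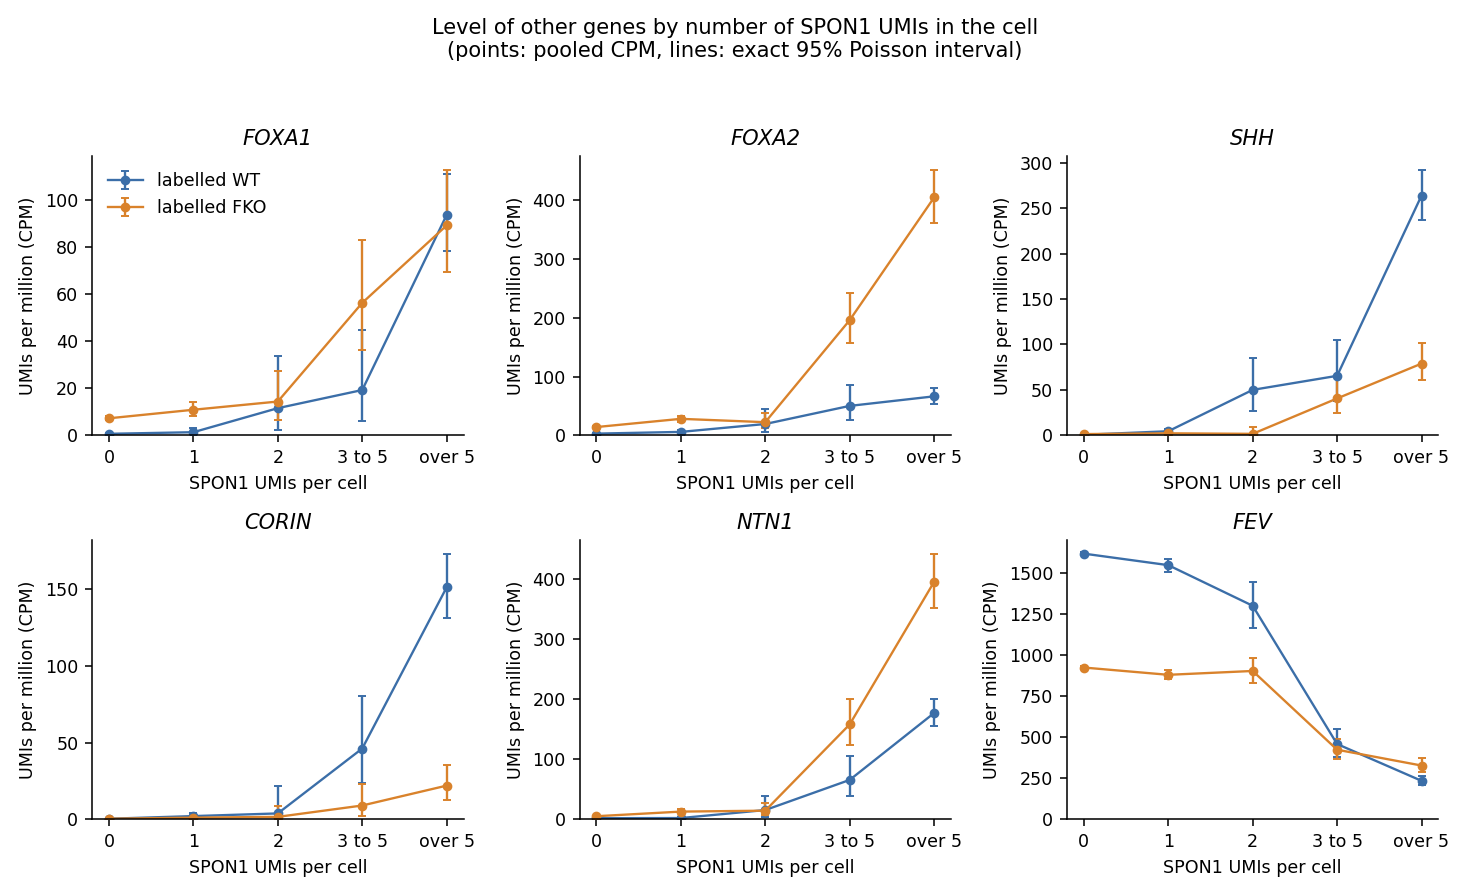
Panels show 6 genes, with the number of SPON1 UMIs per cell at full depth on the x axis and the pooled level in CPM on the y axis; points are the libraries labelled WT (blue) and FKO (orange), with exact 95% Poisson intervals. At over 5 SPON1 UMIs (78 and 52 cells) SHH and CORIN are higher in the WT-labelled library, FOXA2 and NTN1 in the FKO-labelled library, FOXA1 is alike, and FEV is low in both.

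To see what else FOXA2 carriers held, their pooled levels were divided by those of all other cells of the same library, over genes with at least 10 CPM in either set, and a gene 2-fold apart was counted. A gene under 10 CPM in the other cells could be counted only by being higher in carriers, and a gene under 10 CPM in carriers only by being lower. The carriers were deeper than the other cells, with medians of 13297 against 12437 UMIs in the WT-labelled library and 8733 against 6839 UMIs in the FKO-labelled library. In the WT-labelled library 434 of 8779 genes were higher (4.94%) and 25 were lower (0.285%). In the FKO-labelled library 280 of 9967 were higher (2.81%) and 8 were lower (0.0803%). The higher genes had 178 in common, 41.0% of those labelled WT and 63.6% of those labelled FKO, and no lower gene was common to both. Of the other 6 members, 5 passed the filter in the WT-labelled library and 4 in the FKO-labelled library. All of these were higher, with SHH at log2 4.96 and 5.06, SPON1 at 4.37 and 4.11, FOXA1 at 4.21 and 3.66, NTN1 at 3.95 and 3.96, and CORIN at 4.39 labelled WT. All but SPON1 passed only through the carriers, so their direction was fixed by the filter. LMX1A in both libraries and CORIN in the FKO-labelled library stayed under 10 CPM.

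Lists of other genes put these cells in context, with the same limit on direction for genes under 10 CPM in either set of cells. Of 14 other floor plate genes, 8 were tested in the WT-labelled library and 5 were higher (median log2 2.11), and 9 were tested in the FKO-labelled library and 7 were higher (2.45). SULF1, a sulfatase that edits heparan sulfate, rose by log2 4.47 and 5.34, and SLIT2, a secreted axon repellent, by 2.69 and 2.45. NKX6-2, WNT5A and NKX2-2 were past 2-fold and the filter in the FKO-labelled library only, at 2.61, 2.78 and 1.84, and passed the filter only through the carriers. In the WT-labelled library NKX2-2 was at 0.96, and under the filter WNT5A stood at 6.57 CPM in carriers against 0.735 CPM, and NKX6-2 at 6.86 against 9.53 CPM. The summed level of the list was 135.1 CPM in the WT-labelled library, led by SULF1, and 186.7 CPM in the FKO-labelled library, led by SLIT1. SULF1 labelled FKO passed only through the carriers. SLIT2 and SLIT1 (1.53 and 1.15), above 10 CPM in both sets of cells, were thus higher in FOXA2 carriers of both libraries. SLIT3, also above 10 CPM in both sets, was not higher. It was at -0.08 (-0.51 to 0.32) labelled WT and at -0.32 (-0.57 to -0.09) labelled FKO.

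Few genes that receive or release the signal could be tested. Of the 14 genes of the hedgehog pathway, 2 and 3 were tested, and none was 2-fold apart (medians 0.22 and -0.10), with a summed level of 40.4 CPM labelled WT and 88.8 CPM labelled FKO, led by PTCH1, the SHH receptor. Of 9 netrin and spondin partners, 5 and 6 were tested and none was 2-fold apart (medians -0.03 and -0.21), with sums of 469.0 and 985.6 CPM, led by APP. Genes under the filter went both ways between carriers and other cells: SMO stood higher in carriers, at 3.58 against 1.37 CPM labelled WT and 7.55 against 2.96 CPM labelled FKO, and BOC did too, at 5.07 against 0.722 CPM labelled WT and 6.83 against 3.73 CPM labelled FKO. HHIP was at 1.19 against 1.32 CPM labelled WT and 8.09 against 3.36 CPM labelled FKO. Labelled FKO, GLI3 (1.80 against 3.13 CPM) and GAS1 (0.539 against 1.41 CPM) were lower in carriers, from 10 and 3 carrier UMIs. Labelled WT they stood the other way, at 0.895 against 0.545 CPM and 0.895 against 0.585 CPM, from 3 carrier UMIs each.

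The serotonergic and neuronal lists had medians below 0 in FOXA2 carriers of both libraries, with little past 2-fold. All 8 serotonergic genes were tested, with medians of -0.55 and -0.47, and SLC6A4, the serotonin transporter, was the only one past 2-fold, at -1.18 in the WT-labelled library, where it stood under 10 CPM in carriers. The list summed to 2744.1 CPM labelled WT and 2318.7 CPM labelled FKO, led by FEV and with no marker at 0. All 6 neuronal genes were tested, with medians of -0.48 and -0.28 and none past 2-fold, though ELAVL4 was higher in carriers labelled FKO, at 0.16 (0.06 to 0.26), and sums of 6984.7 and 9360.4 CPM, led by STMN2. The carriers as a whole, mostly cells with 1 UMI, were thus within 2-fold of the other cells in these neuronal genes.

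Progenitor and cycling genes were limited by the filter. Of 16 cycling genes, 11 were tested in the WT-labelled library (median 2.36) and 9 in the FKO-labelled library (1.57), and all of these were counted as higher, with sums of 99.3 and 116.6 CPM over all cells, led by CENPF. Of 8 neural progenitor genes, 4 of 6 tested (median 1.70) and 6 of 7 tested (1.94) were higher, with sums of 986.0 and 1152.1 CPM, led by VIM. HES1, a Notch target, rose by 4.41 and 2.91. Most of the tested cycling genes, as well as HES1, were under 10 CPM in the other cells, so for them higher was the only call possible, and these counts are not set against the shares for all genes. Of the genes above 10 CPM in both sets of cells in both libraries, CENPF (2.47 and 1.48), VIM (2.23 and 1.46) and NES (1.17 and 1.60) were over 2-fold higher in both, FABP7, a radial glial gene (0.51 and 2.72), only in the FKO-labelled library, and SOX2 (0.52 and 0.78) in neither.

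Markers of other cell types were followed as well, since FOXA genes also mark endoderm. Of 11 endoderm markers, SOX17, GATA4, GATA6 and FOXA3 were at 0 in both libraries, HNF4A at 0 in the WT-labelled library and AFP in the FKO-labelled library. The list summed to 35.3 CPM labelled WT, led by TTR, and 23.2 CPM labelled FKO, led by EPCAM. In carriers 2 of 3 tested were higher in the WT-labelled library, TTR at 4.86 and APOA1 at 3.38, and 1 of 2 in the FKO-labelled library, TTR at 5.30. TTR and APOA1 passed only through the carriers, and APOA1 was not tested in the FKO-labelled library. EPCAM, above 10 CPM in both sets of cells, was at -0.25 (-0.76 to 0.21) labelled WT and at -0.41 (-0.76 to -0.08) labelled FKO. What part the source of these transcripts has in the results above was not tested.

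Of 6 mesenchymal genes, 3 were tested and 3 higher in carriers labelled WT, DCN at 5.17, LUM at 4.15 and COL3A1 at 1.53, whereas 5 were tested and 2 lower in carriers labelled FKO, COL1A2 at -2.00 and COL1A1 at -1.45. The list summed to 36.5 CPM labelled WT, led by LUM, and 228.3 CPM labelled FKO, led by COL1A2, with no marker at 0. The genes tested in both libraries did not move alike in carriers labelled FKO: LUM was at -0.80 (-1.23 to -0.40), COL3A1 at 0.18 (-0.01 to 0.37) and DCN at 0.72 (0.37 to 1.05). DCN in both libraries and LUM in the WT-labelled library passed only through the carriers. COL1A1, which was not tested in the WT-labelled library, stood there at 0.298 CPM in carriers against 1.97 CPM. What part these mesenchymal genes have in the results above was not tested. Of 4 ciliated cell markers 3 were measured, and the tested ones, FOXJ1 (3.87) and RSPH1 (2.96) labelled WT and RSPH1 (3.38) labelled FKO, passed only through the carriers, with sums of 6.18 CPM, led by RSPH1, and 5.85 CPM, led by DNAH9, and none at 0. FOXJ1 is also on the floor plate list.

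In the remaining lists few genes passed the filter. Of 7 dopaminergic genes, 2 were tested and none was 2-fold apart in the WT-labelled library (median -0.35), and 3 were tested and NR4A2, which passed only through the carriers, was at 1.68 in the FKO-labelled library (median 0.50). They summed to 88.2 and 172.3 CPM, led by EN1, with SLC6A3, the dopamine transporter, at 0 in the FKO-labelled library. Under the filter, NR4A2 labelled WT stood at 5.37 CPM in carriers against 0.204 CPM, from 18 and 15 UMIs. PITX3 stood at 4.18 against 0.0545 CPM labelled WT and at 1.08 against 0.0573 CPM labelled FKO, from 14 and 6 carrier UMIs. OTX2 labelled FKO stood at 2.70 against 0.516 CPM. ALDH1A1 had no UMI in carriers of either library. Of 7 roof plate genes only RSPO3 was tested, in the WT-labelled library (4.72, through the carriers alone), with sums of 1.98 CPM, led by RSPO3 and with WNT3A and RSPO1 at 0, and 6.44 CPM, led by MSX1. No gene passed the filter among the 4 visceral motor genes (3.03 and 2.14 CPM, led by ISL1, with TBX20 at 0 in the FKO-labelled library). Of the V3 interneuron genes, 1 of 2, UNCX, was tested and was not 2-fold apart (-0.47 and -0.22), with sums of 32.8 and 63.9 CPM led by UNCX and none at 0. SIM1, under the filter, stood at 3.96 CPM in carriers labelled FKO against 0.630 CPM, and had no UMI in carriers labelled WT.

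For each of the 7 genes, the genes with the most similar pattern over single cells were sought among 14832 genes by Pearson's r of log counts, averaged over the libraries. The cells of a library share their depth and free RNA, and r is a description over 5749 and 6978 cells. LINC00261, a long noncoding RNA 2363 bases from FOXA2 on chromosome 20, came first for FOXA2 (mean r 0.48, with 0.44 labelled WT and 0.52 labelled FKO) and for FOXA1 (0.45, with 0.47 and 0.43). SULF1 came first for SPON1 (0.70, with 0.83 and 0.56), NTN1 (0.63), SHH (0.57) and CORIN (0.46, with 0.71 and 0.21). TFF3, a secreted trefoil peptide, was among the first 3 for each of these 6 genes, with mean r between 0.35 and 0.57. WLS, which carries WNT proteins to the cell surface, followed SULF1 and TFF3 for SHH, SPON1 and NTN1, and CD36 was second for CORIN (0.38). For LMX1A the highest was 0.22 with EBF3, too weak to read in counts this sparse. By mean r the FOXA genes thus had LINC00261 as their nearest pattern, and SHH, CORIN, SPON1 and NTN1 had SULF1. Within single libraries this did not always hold: labelled WT, FOXA1 had a higher r with SULF1 (0.61) and TFF3 (0.55) than with LINC00261, and labelled FKO, CORIN had a higher r with CD36 (0.24) than with SULF1.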

How the data were processed

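Counts were analysed as deposited: the authors made raw UMI counts per gene and barcode with Cell Ranger (version 7.0 in the submitters' notes, 7.1.0 in the file headers) on GRCh38. Whether intronic reads were counted is not given in the sources used here. Kept cells had at least 1000 UMIs and 500 genes, with a mitochondrial share of 10% or less. Scrublet's own threshold marked no barcode, so the highest scores were removed at 0.8% per 1000 barcodes (scanpy 1.11.5). Thinning, sums and exact intervals used numpy 2.4.6, scipy 1.17.1 and pandas 2.3.3. Positions came from GENCODE release 29. The 7 genes and the lists (serotonergic, cycling, neuronal, neural progenitor, mesenchymal, endoderm, dopaminergic, roof plate, visceral motor, V3 interneuron, ciliated, other floor plate, hedgehog pathway, netrin and spondin partners) were chosen with earlier results of these data known. Named genes were the 7, FEV, SLC17A6, the lists, and for each of the 7 the 3 genes with the highest mean r among genes found in at least 50 cells of each library; other genes overlapping a member were named from the annotation. Alternatives changed the mitochondrial limit, doublets, barcode limits, thinning, the UMIs that make a carrier, the cycling rule, the random draw and the CPM filter. For the counts of genes 2-fold apart, carriers with at least 2 FOXA2 UMIs, and the settings for SPON1-rich cells were added after seeing the data. Of the planned lists, 1 is not reported here, nor are some single genes.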

Additional observations from a re-analysis of the deposited data

How the results depend on the processing

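Of 110 alternative values for the main results 75 stayed within the interval of the reported value or, for counts of genes, within 1.5 times of it, and 35 moved. For the other results 134 of 190 stayed and 56 moved. No test between libraries was made, and the causes of the changes below were not tested except where the setting itself changes the depth.

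For the share of cells with a FOXA2 UMI, reported as 0.736% labelled WT and 2.81% labelled FKO, the mitochondrial limit of 5% gave 1.88% and 2.17%, thinning to 1000 UMIs 0.435% and 1.49%, thinning to 4000 UMIs 1.37% and 4.41%, and no thinning 3.74% and 6.86%. At least 2 UMIs together with no thinning gave 1.10% labelled WT, and keeping doublets gave 3.27% labelled FKO. The library labelled FKO was higher in each of these settings. For the share of FOXA2 cells with a SHH or CORIN UMI, the mitochondrial limit of 5% gave 0% labelled WT. Thinning to 1000 UMIs gave 4.0% labelled WT. No thinning gave 24.2% labelled WT and 14.2% labelled FKO. At least 2 UMIs together with no thinning gave 42.9% labelled WT and 15.0% labelled FKO. With the mitochondrial limit of 5% and with thinning to 1000 UMIs the order of the libraries turned, with 6.45% and 6.73% labelled FKO. For the share with FEV, thinning to 1000 UMIs, thinning to 4000 UMIs and no thinning gave 40.0%, 80.5% and 92.1% labelled WT and 33.7%, 64.4% and 79.3% labelled FKO, and the mitochondrial limit of 5% gave 62.9% labelled FKO. For the share with SLC17A6 labelled FKO, the mitochondrial limit of 5% gave 8.06%, removing doublets at 2 times the rate 8.19%, and no thinning 8.56%. For the cycling share, thinning to 1000 UMIs gave 0% labelled WT, and no thinning gave 8.77% labelled FKO. At least 2 UMIs together with no thinning gave 27.0% labelled WT and 13.6% labelled FKO.

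The number of genes 2-fold apart between FOXA2 carriers and other cells was 459 labelled WT and 288 labelled FKO. With no filter beyond 3 UMIs it was 8426 and 6587, with at least 50 CPM 91 and 55, and with at least 2 FOXA2 UMIs, a setting added after seeing the data, 1693 and 595. Fewer genes were tested at 50 CPM and more with no filter.

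Levels by cell class and by number of FEV UMIs were computed at the main setting alone. Depth limits what single UMIs can show: at 2000 UMIs per cell 42 FOXA2 carriers remained in the library labelled WT, and shares among them carry wide intervals. The median mitochondrial share of kept cells was 7.82% labelled WT and 5.33% labelled FKO, so the limit cut the libraries unequally. PUR dose, line, sort and library preparation cannot be told apart from genotype with 1 library per group.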

Other observations

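In the library labelled WT the summed endoderm list rose at each step of FOXA2 UMIs. It stood at 25.7 CPM in cells with no FOXA2 UMI, at 87.4 CPM with 1, at 299.8 CPM with 2, at 642.2 CPM in the 23 cells with 3 to 5 and at 1371.8 CPM in the 3 cells with over 5, and TTR led it at every step from 1 UMI on. From 1 UMI on, TTR alone stood at 67.4, 235.2, 618.1 and 1351.7 CPM, so it made up most of the sum. In the library labelled FKO the same list stood at 21.9, 51.4, 20.5 and 20.3 CPM over these steps and at 19.9 CPM in the 66 cells with over 5. There EPCAM led at 0, 2 and 3 to 5 UMIs, at 18.7, 12.8 and 10.2 CPM. TTR led at 1 and at over 5 UMIs, at 29.5 and 12.6 CPM, against 0.478 CPM in cells without FOXA2. The summed mesenchymal list did not change in 1 direction: over the same steps it stood at 25.9, 175.3, 465.4, 348.3 and 710.9 CPM labelled WT, and at 239.4, 50.6, 234.8, 217.2 and 137.1 CPM labelled FKO. The other floor plate genes stood at 109.3, 503.2, 1083.3, 1010.6 and 1101.4 CPM labelled WT, with no rise beyond the intervals after 2 UMIs, and rose from 135.8 to 292.6, 613.4, 913.2 and 1499.4 CPM labelled FKO.

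Barcodes set aside by their doublet score carried FOXA2 more often in the library labelled FKO: 16.1% of 595 such barcodes had a FOXA2 UMI at full depth, with a median of 12700 UMIs, against 3.77% of 636 labelled WT, with a median of 14184 UMIs. SPON1 was in 16.1% and 8.33% of them, and FOXA1 in 12.3% and 3.62%.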
